A study of Vitis vinifera with 18 samples.

Results

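Described here are 144 transcript clusters of ripe grape berries (Vitis vinifera) whose level at Sicily lay on opposite sides of the other sites in the 2 varieties: higher than at Molise and Campania in Cabernet Sauvignon and lower in Aglianico, or the reverse. They were taken from 13971 clusters with at least 20 counts in each of 17 libraries, out of 97442 clusters in all. A cluster was a member if, in mean log2 normalised counts, its Sicily mean lay at least 0.6 above both the Molise mean and the Campania mean in 1 variety and at least 0.6 below both in the other, and if each of these gaps was larger than the difference between Molise and Campania in the same variety. The 106 members that were higher at Sicily in Cabernet Sauvignon and lower in Aglianico are called the Cabernet-up class, and the 38 members with the reverse pattern the Aglianico-up class. They made up 0.759% and 0.272% of the 13971 clusters.

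The series set Cabernet Sauvignon and Aglianico, both red varieties grown in the open field as bush-trained, spur-pruned vines, against each other at Sicily, Molise and Campania in southern Italy, to study how genotype and growing environment act together on the berry transcriptome. Each library came from poly(A)-selected RNA of a pool of 10 fully ripe berries, extracted whole but for the seeds, with 3 biological replicates planned per variety and site. Nothing says whether these came from separate vines or plots, so the p-values below measure the spread between these pools. A whole-berry pool mixes skin and flesh, and a change in the share of a tissue cannot be told apart from a change of RNA level within it.

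When the effect of a growing site depends on the genotype, geneticists speak of a genotype-by-environment interaction. A site may raise a trait in one genotype and lower it in the other, and where this changes the order of the genotypes from site to site it is called a crossover. In grape berries, transcript levels are known to respond to temperature, light and water supply during ripening, and varieties are known to differ in how plastic they are.

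The files number the clusters without naming genes. Since 0 of 97442 identifiers were found in the RefSeq gene table, neither gene functions nor pathway or cell type lists could be assigned to the members. For the same reason the fruit label could not be checked against marker genes. Levels are given as normalised counts, the deposited expected counts (read counts estimated by a model, which need not be whole) divided by median-of-ratios size factors. They compare libraries within a cluster and not clusters with each other, since transcript lengths are not used here. All 144 members shared the identifier prefix 27903, as did 13970 of the 13971 clusters they came from and 66.2% of all 97442.

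Library totals ran from 22637307 to 31859647 expected counts. The library labelled Aglianico Campania replicate 3 was not used to choose the members. Across the 13971 clusters it lay nearer to the Cabernet Sauvignon Campania mean than to the mean of the other Aglianico Campania libraries in 78.2%, so its label is in doubt. Cabernet Sauvignon Sicily replicate 2 and a Cabernet Sauvignon Sicily library whose column carries no legible number (the unnumbered library) also stood apart. They held 45079 and 29212 clusters with at least 10 counts, against 23513 in replicate 3 of the same group and 19155 to 25443 in the other groups. The class sizes and some of the counts that rest on these libraries are given with and without them.

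Because the members were chosen for their Sicily differences, the sizes of these differences describe the selection and are given without a test. The Sicily difference is the mean log2 normalised count at Sicily minus the average of the Molise and Campania means. In the Cabernet-up class it ran from 0.66 to 5.03 in Cabernet Sauvignon (median 1.29, or 2.45-fold higher at Sicily) and from -5.05 to -0.66 in Aglianico (median -1.13, or 2.19-fold lower at Sicily). In the Aglianico-up class it ran from -1.99 to -0.62 in Cabernet Sauvignon (median -1.03, or 2.05-fold lower) and from 0.65 to 3.07 in Aglianico (median 1.24, or 2.36-fold higher). Over all 13971 clusters the median size of the difference, whatever its direction, was 1.23-fold in Cabernet Sauvignon and 1.25-fold in Aglianico.

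**Figure D1:**
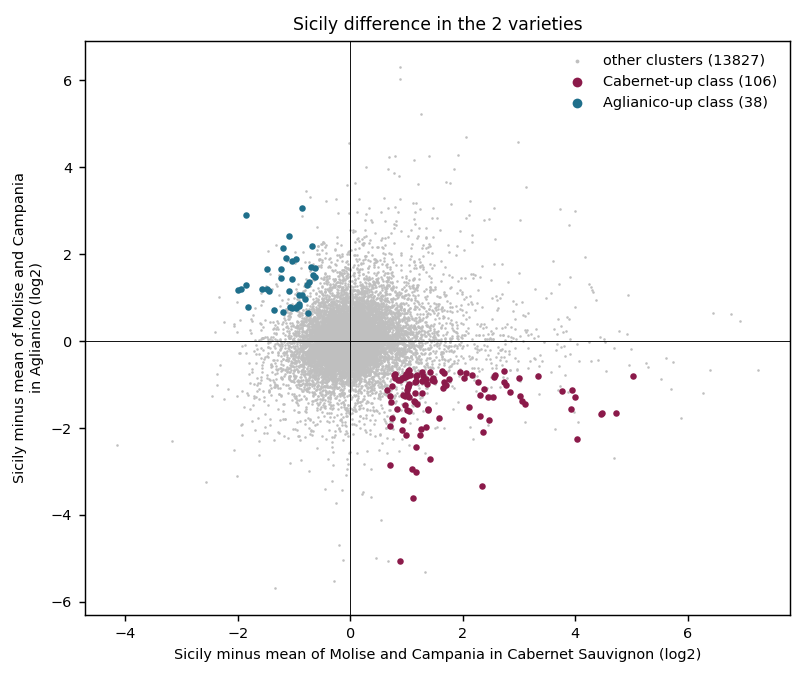
Sicily difference (mean log2 normalised count at Sicily minus the average of the Molise and Campania means) in Cabernet Sauvignon on the horizontal axis and in Aglianico on the vertical axis, with 1 point per cluster. The 106 points of the Cabernet-up class lie at the lower right, reaching 5.03 in Cabernet Sauvignon, and the 38 points of the Aglianico-up class at the upper left, reaching 3.07 in Aglianico; grey points are the other 13827 clusters.

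The variety with the larger difference was not always the same. In the Cabernet-up class 64 members had the larger difference in Cabernet Sauvignon and 42 in Aglianico, and the difference reached 4-fold in 33 members in Cabernet Sauvignon, in 14 in Aglianico and in 3 in both. Among the 38 members of the Aglianico-up class it was larger in Cabernet Sauvignon in 16 members and in Aglianico in 22, and reached 4-fold in 0 members in Cabernet Sauvignon and in 5 in Aglianico. The plot of the 2 Sicily differences shows this as points spread along either axis rather than along the diagonal. Differences of at least 2-fold in both varieties were found in 48 and 16 members.

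By the same limits, 1230 of the 13971 clusters were higher at Sicily in Cabernet Sauvignon and 1019 were lower at Sicily in Aglianico. The 106 members of the Cabernet-up class were 8.62% of the first list, beside 7.29% of all clusters that were lower in Aglianico. They were 10.4% of the second list, beside 8.8% of all clusters that were higher in Cabernet Sauvignon. The 38 members of the Aglianico-up class were 5.35% of the 710 clusters lower at Sicily in Cabernet Sauvignon, beside 8.42% of all clusters that were higher in Aglianico. They were 3.23% of the 1176 clusters higher at Sicily in Aglianico, beside 5.08% of all clusters that were lower in Cabernet Sauvignon. For comparison, 161 clusters were higher at Sicily in both varieties and 115 were lower in both.

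Membership has a sharp limit on a continuous scale. The member nearest to it in the Cabernet-up class had a smallest gap of 0.609, and the nearest cluster outside had 0.599. The values in the other class were 0.602 inside and 0.585 outside. A further 29 and 12 clusters passed 0.6 in both varieties but were left out because Molise and Campania differed by as much as the gap.

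In some members the Sicily libraries lay outside the range of all Molise and Campania libraries among the 17, in both varieties. Of these, the pair with the largest smallest gap in each class is shown here by library. Cluster-27903.28561 (Cabernet-up class) had normalised counts of 26943, 8256 and 22526 in Cabernet Sauvignon at Sicily, 1316, 2180.4 and 519 at Molise and 2350.2, 499 and 729 at Campania. In Aglianico it had 407, 792 and 251 at Sicily, 888, 7399 and 1464 at Molise and 1320.4 and 3041 at Campania. Its 3 Cabernet Sauvignon Sicily libraries were the highest of the 17, although replicate 3 was well below the other 2. Its 3 Aglianico Sicily libraries lay below every other Aglianico library of the 17. The library labelled Aglianico Campania replicate 3 had 661.4, below the 792 of Aglianico Sicily replicate 2. The difference at Sicily was 16.4-fold in Cabernet Sauvignon and 4.77-fold in the other direction in Aglianico. Aglianico at Molise varied widely, at 3250.3 ± 3605 (SD, n = 3), and replicate 2 supplied most of that mean.

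Cluster-27903.20658 (Cabernet-up class) had 830.1, 209 and 780.1 normalised counts in Cabernet Sauvignon at Sicily, 128, 125 and 137 at Molise and 64.2, 75 and 95.9 at Campania. Its Aglianico libraries had 115, 119 and 84.7 at Sicily, 622, 418 and 343 at Molise and 323 and 612 at Campania. Among the 17 libraries the 2 varieties thus changed places. At Sicily every Cabernet Sauvignon library lay above every Aglianico library. At Molise and Campania every Aglianico library of the 17 lay above every Cabernet Sauvignon library. The library labelled Aglianico Campania replicate 3 had 119.7. The Sicily difference was 5.12-fold higher in Cabernet Sauvignon and 4.24-fold lower in Aglianico.

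Cluster-27903.32537 (Aglianico-up class) had 127, 169 and 58.5 normalised counts in Cabernet Sauvignon at Sicily, 279, 373 and 333 at Molise and 422, 426 and 559.9 at Campania. Aglianico had 684, 595 and 1228 at Sicily, 205, 88.4 and 133 at Molise and 209 and 34.2 at Campania. The order was the mirror image of the previous cluster, with Aglianico higher at Sicily and Cabernet Sauvignon higher at the other sites without overlap. The Sicily difference was 3.61-fold lower in Cabernet Sauvignon and 7.46-fold higher in Aglianico.

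Cluster-27903.24125 (Aglianico-up class) had 56.7, 76.3 and 81.1 normalised counts in Cabernet Sauvignon at Sicily, 158, 199.5 and 266 at Molise and 158, 211 and 215 at Campania. Its counts in Aglianico were 548, 903 and 777 at Sicily, 235, 252 and 300.0 at Molise and 297 and 135 at Campania. Here the varieties overlapped at Molise and at Campania and parted at Sicily. The Sicily difference was 2.8-fold lower in Cabernet Sauvignon and 3.18-fold higher in Aglianico.

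**Figure D2:**
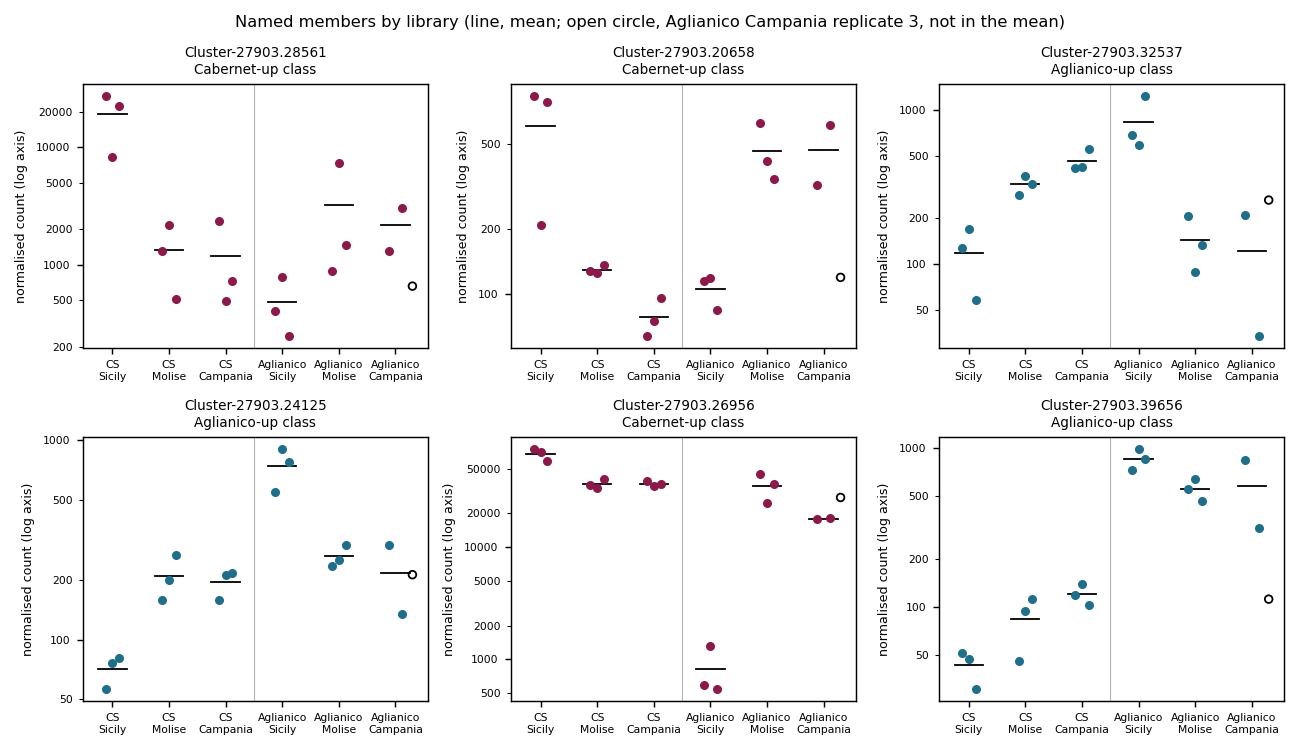
Normalised counts on a log axis of 6 named clusters in each variety and site, with 1 point per library and a line at the group mean; CS is Cabernet Sauvignon, and the open circle is the library labelled Aglianico Campania replicate 3, which is not in the mean. Cluster-27903.20658 has 209 to 830.1 in Cabernet Sauvignon and 84.7 to 119 in Aglianico at Sicily. The order is turned round at the other sites, where Aglianico has 323 to 622 without the open circle and Cabernet Sauvignon 64.2 to 137.

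The member with the most reads in the Cabernet-up class behaved otherwise. It had 62640.2, 39641 and 77836 normalised counts in Cabernet Sauvignon at Sicily, against 23469 to 30299.6 in the 6 libraries of the other sites. In Aglianico it had 33241, 45599 and 26452 at Sicily, against 98713 to 337039 at the other sites. At Sicily the varieties overlapped, and at the other sites Aglianico was higher throughout among the 17 libraries. The library labelled Aglianico Campania replicate 3 had 15834. The most abundant member of the Aglianico-up class had 52467, 28127 and 21776 normalised counts in Cabernet Sauvignon at Sicily, which lay within the 27839 to 106159 of the other sites for 2 of the 3 libraries. In Aglianico it had 55566, 38169 and 49921 at Sicily, against 5462 to 27941 elsewhere among the 17 libraries. The library labelled Aglianico Campania replicate 3 had 105714.

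Summed over its members, the Cabernet-up class took 2.22%, 1.55% and 2.04% of all expected counts in the Cabernet Sauvignon Sicily libraries, 0.933% to 0.994% at Molise and 0.86% to 0.874% at Campania. In Aglianico it took 0.295% to 0.493% at Sicily, 1.79% to 2.21% at Molise and 1.61% and 1.34% at Campania. In neither variety did the Sicily shares overlap those of the other sites. The members were chosen for these Sicily differences, so nothing is read from the separation. Without the most abundant member the Aglianico Molise share was 0.902% to 1.06%. The Aglianico-up class took 0.11% to 0.231% in Cabernet Sauvignon at Sicily, 0.298% to 0.453% at Molise and 0.248% to 0.632% at Campania, and in Aglianico 0.279% to 0.369%, 0.108% to 0.224% and 0.107% and 0.14%. Most of these Cabernet Sauvignon sums came from the most abundant member, without which they were 0.0384% to 0.0763% at Sicily, 0.123% to 0.148% at Molise and 0.123% to 0.149% at Campania. In Aglianico they were then 0.147% to 0.177% at Sicily, 0.08% to 0.116% at Molise and 0.12% and 0.0684% at Campania.

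**Figure D3:**
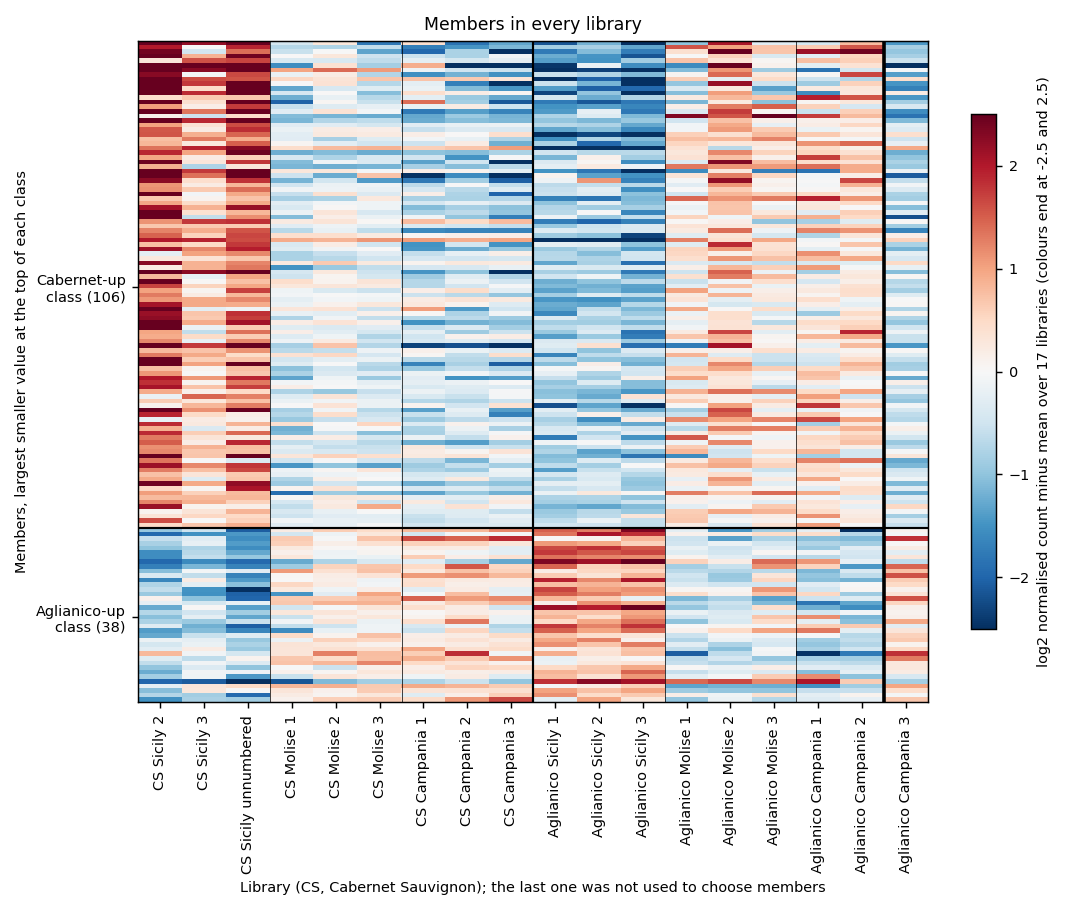
Log2 normalised count minus the mean over 17 libraries (colour, cut off at -2.5 and 2.5) for the 144 members in rows, ordered by the smallest gap within each class, and the 18 libraries in columns. The 3 Cabernet Sauvignon Sicily columns are mostly red for the 106 members of the Cabernet-up class and blue for the 38 of the Aglianico-up class, the 3 Aglianico Sicily columns show the opposite, and the last column, labelled Aglianico Campania replicate 3, has the colours of the Cabernet Sauvignon Campania columns.

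Each Sicily library was then set alone against the mean of the other sites in its variety. In the Cabernet-up class the median was 1.77 on the log2 scale in Cabernet Sauvignon replicate 2, 1.5 in the unnumbered library and 0.89 in replicate 3, with 106, 106 and 102 of 106 members above the mean of the other sites. The members were chosen by the means of these same libraries, so nothing is read from the counts by direction, here or in the other class. Cabernet Sauvignon replicate 3 had the smallest median. It lay above its group mean in only 13 of the 106 members, beside 6784 of all 13971 clusters. The 2 larger values came from the libraries with more detected clusters, and the part of those extra clusters in the result was not tested. In Aglianico the 3 Sicily libraries had medians of -1.14, -1.02 and -1.33, with 106, 103 and 105 members below.

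In the Aglianico-up class the medians were -1.07 in Cabernet Sauvignon Sicily replicate 2, -1.28 in the unnumbered library and -0.78 in replicate 3, with 36, 38 and 36 of 38 members below the mean of the other sites. The Aglianico Sicily medians were 1.29, 1.24 and 1.28, with all 38 members above in each library. The spread between Cabernet Sauvignon libraries in this class was thus smaller than in the Cabernet-up class.

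**Figure D4:**
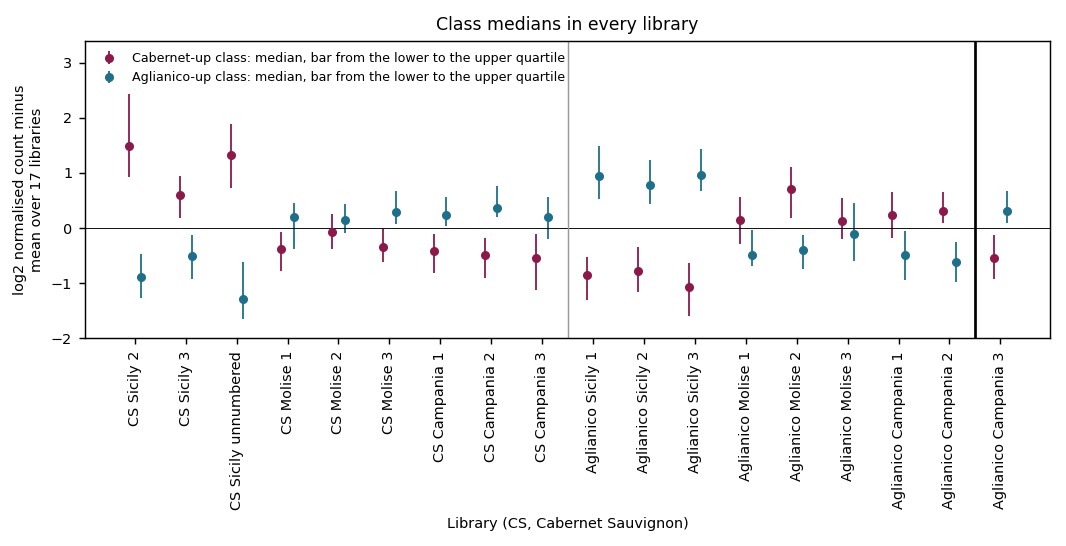
Median over the members of each class of the log2 normalised count minus the mean over 17 libraries, for each library, with bars from the lower to the upper quartile over members; CS is Cabernet Sauvignon. The Cabernet-up class has its highest medians in Cabernet Sauvignon at Sicily (1.5, 0.59 and 1.32) and its lowest in Aglianico at Sicily (-0.85, -0.77 and -1.06), while the library right of the thick line, labelled Aglianico Campania replicate 3, has -0.55 beside -0.53 to -0.42 in Cabernet Sauvignon Campania and 0.23 and 0.31 in the other Aglianico Campania libraries.

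Overlap was counted among the 17 libraries. All Sicily libraries lay outside the range of the Molise and Campania libraries in both varieties in 56 of 106 members of the Cabernet-up class and 23 of 38 of the Aglianico-up class. Over the 13971 clusters, 1.8% did so with opposite directions, and nothing is read from the comparison because the rule used these values. With replicate 3 as the only Cabernet Sauvignon library at Sicily, which is easier to set apart than 3, the counts were 60 and 26 (3.04%). In Cabernet Sauvignon alone the Sicily libraries lay above all others in 80 members of the Cabernet-up class and below in 26 of the Aglianico-up class, beside 12.6% and 9.36% of the 13971. In Aglianico alone they lay below in 77 and above in 31, beside 12.4% and 13.2%.

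Members varied more between replicates than clusters in general. They were chosen by the means of these same libraries, and the rule can favour clusters with a larger spread. The part of the rule in this was not tested. The median SD within groups, on the log2 scale and pooled over the 6 groups, was 0.456 in the Cabernet-up class and 0.39 in the Aglianico-up class, against 0.252 over all 13971 clusters. In the Cabernet-up class the median SD was 0.686 in Cabernet Sauvignon at Sicily, 0.255 at Molise and 0.233 at Campania, and in Aglianico 0.344, 0.46 and 0.268. Over all 13971 clusters these medians were 0.255, 0.153 and 0.168 in Cabernet Sauvignon, and 0.195, 0.241 and 0.24 in Aglianico. The class thus lay above all clusters in every group, by most in Cabernet Sauvignon at Sicily and by least in Aglianico at Campania. Aglianico Molise replicate 2 was above its group mean in 71 of 106 members, beside 6854 of all 13971 clusters. In the Aglianico-up class the Cabernet Sauvignon Sicily SD was 0.494 and the other 5 group medians lay between 0.237 and 0.302. Pooled without Cabernet Sauvignon at Sicily, the median SD was 0.391 and 0.335 in the classes, against 0.244 over all 13971 clusters.

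Members were also somewhat lower in reads. The median over members of the geometric mean over libraries was 360.5 normalised counts in the Cabernet-up class (62.1 to 57013) and 223 in the Aglianico-up class (49.8 to 29717), against 450.4 over all 13971 clusters. In the median member, 23.5% of the deposited values in the Cabernet-up class and 11.8% in the Aglianico-up class were not whole numbers, against 17.6% over all clusters. Fractions can arise when an estimate divides reads between clusters, so the levels of such members may depend on that division.

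Replicates of a group also deviated together within a class. Across the 17 libraries, the deviations of a member from its group means had a median correlation of 0.258 with those of other members of the Cabernet-up class (5565 pairs), of 0.158 within the Aglianico-up class (703 pairs) and of -0.148 between the classes (4028 pairs). Over all pairs of the 13971 clusters the median was -0.001. Correlations above 0.5 made up 30.5% of pairs within the Cabernet-up class, 17.4% within the Aglianico-up class and 9.41% of all pairs. These are descriptions: the pairs share libraries and their scaling, and the members were chosen from the means of the same libraries.

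Numbering of the clusters placed 2 pairs of members side by side, both in the Cabernet-up class. Cluster-27903.28561 and Cluster-27903.28562 had deviations from their group means with a correlation of 0.798 over 17 libraries, and the other pair of 0.843. None of the 17 values of Cluster-27903.28561 was fractional, against 23.5% of those of Cluster-27903.28562, and in the other pair the shares were 100% and 58.8%. Over all 9688 pairs of clusters with consecutive numbers among the 13971 the median was 0.014. Cluster-27903.28562 had 4500.2, 1719 and 2136 normalised counts in Cabernet Sauvignon at Sicily, 704, 950.3 and 737 at Molise and 324, 249 and 245 at Campania. In Aglianico it had 54.7, 70.3 and 57.5 at Sicily, 167, 756 and 191 at Molise and 98.2 and 256 at Campania. As in Cluster-27903.28561, Cabernet Sauvignon Sicily replicate 2 and Aglianico Molise replicate 2 were the highest of their groups. Reads of near-identical transcripts can be divided between clusters, and whether these neighbours share sequence was not tested.

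How the varieties stood to each other at each site was described next, by the Cabernet Sauvignon mean minus the Aglianico mean on the log2 scale. In the Cabernet-up class this difference was 0.18 to 6.49 at Sicily, with a median of 2.03, and -3.04 to 1.11 as the average of Molise and Campania, with a median of -0.79. Cabernet Sauvignon was the lower variety at the other sites in 89 of 106 members (84%; 7024 of all 13971 clusters). In the Aglianico-up class the difference was -4.32 to -0.07 at Sicily, with a median of -1.52, and -2.44 to 2.29 at the other sites, with a median of 0.75. Cabernet Sauvignon was the higher variety at the other sites in 30 of 38 (6938 of all 13971). The members were chosen by the same group means, so nothing is read from these counts.

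A member was called crossing when the varieties differed by at least 0.6 both at Sicily and at the other sites, in opposite order. This held for 63 of 106 members of the Cabernet-up class (59.4%), with median differences of 1.86 at Sicily and -1.04 elsewhere, and for 19 of 38 of the Aglianico-up class (50%), with -1.48 and 1.01. Diverging members, which differed by that much only at Sicily, numbered 35 and 11. Converging members, which differed only at the other sites, numbered 1 and 4, and members with the same order at Sicily and elsewhere 7 and 4. Among all 13971 clusters, 3.78% were crossing and 22.5% diverging; since the rule set how the difference changes between sites, the excess of crossing among the members is not independent of it. With replicate 3 as the only Cabernet Sauvignon library at Sicily, 51 and 18 members were crossing (2.86% of all 13971).

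**Figure D5:**
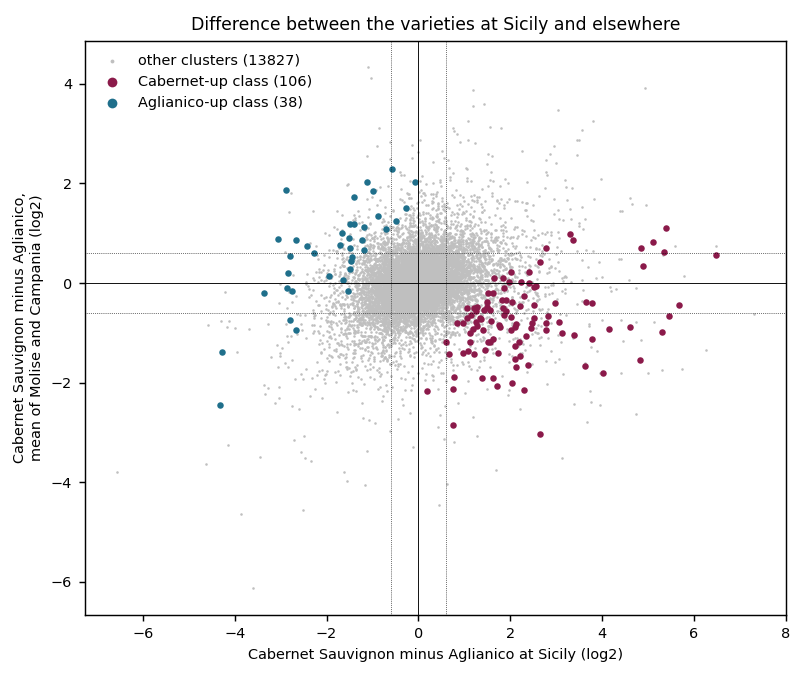
Cabernet Sauvignon minus Aglianico in mean log2 normalised counts at Sicily (horizontal axis) and as the average of Molise and Campania (vertical axis), with 1 point per cluster and dotted lines at -0.6 and 0.6. The 63 crossing members of the Cabernet-up class lie at the lower right beyond the lines and the 19 of the Aglianico-up class at the upper left; grey points are the other 13827 clusters.

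Statistical tests used the quasi-likelihood test of edgeR over 29738 clusters with Benjamini-Hochberg adjustment, and calls are those with an adjusted p under 0.05. The contrast that the rule did not use is the difference between varieties averaged over the 3 sites. By it 54 of 144 members were called (37.5%), 30 higher and 24 lower in Cabernet Sauvignon. The background was 30.1% of all clusters tested and 36.2% of the 13971, so the share of members called was close to that of the clusters they came from. By class, 34 of 106 were called in the Cabernet-up class (22 higher, 12 lower) and 20 of 38 in the Aglianico-up class (8 higher, 12 lower), beside 15.4% higher and 20.9% lower among the 13971. The median log2 fold change was 0.14 and -0.15, against -0.05 over the 13971 clusters. With replicate 3 as the only Cabernet Sauvignon library at Sicily, the average changed sign in 16 of 144 members. With the library labelled Aglianico Campania replicate 3 added, 44 members were called (30.6%, beside 26.8% of the 27519 clusters tested in that fit).

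Cluster-27903.39656 (Aglianico-up class) was the member lowest in Cabernet Sauvignon. It had 51.6, 47.7 and 31.0 normalised counts in Cabernet Sauvignon at Sicily, 46.1, 94.6 and 112 at Molise and 119, 140.0 and 103 at Campania. The Aglianico libraries had 721, 977 and 855 at Sicily, 549.6, 632 and 465 at Molise and 834 and 315 at Campania. Among the 17 libraries, all 9 of Cabernet Sauvignon lay below all 8 of Aglianico. The library labelled Aglianico Campania replicate 3 had 112.6, within the range of Cabernet Sauvignon at Campania. The average log2 fold change was -3.12 ± 0.22 (SE; adjusted p = 2.75e-07, edgeR). The varieties kept their order at every site. The gap was widest at Sicily, which the rule fixes for a member of this class with Aglianico higher at every site. Its Sicily difference in Aglianico was 0.66 ± 0.3 and was not called (SE; adjusted p = 0.14, edgeR).

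Cluster-27903.33645 (Aglianico-up class) had 159.8, 207 and 162 normalised counts in Cabernet Sauvignon at Sicily, 261, 366 and 475 at Molise and 515, 352 and 259 at Campania. Aglianico libraries had 3163, 2728 and 4441 at Sicily, 934, 716 and 1664 at Molise and 1343 and 544 at Campania. Again all 9 Cabernet Sauvignon libraries were below all 8 Aglianico libraries of the 17, with an average log2 fold change of -2.45 ± 0.24 (SE; adjusted p = 9.09e-06, edgeR). The library labelled Aglianico Campania replicate 3 had 403.4, within the range of Cabernet Sauvignon at Campania.

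Cluster-27903.26956 (Cabernet-up class) was the member highest in Cabernet Sauvignon. It had 74208, 70763 and 57973 normalised counts in Cabernet Sauvignon at Sicily, 35618, 33585 and 39978 at Molise and 38538, 34784 and 36678 at Campania. Its Aglianico counts were 584, 1310.4 and 549 at Sicily, 44382, 24886 and 36541 at Molise and 17869.6 and 17962 at Campania. The average difference was 2.43 ± 0.18 on the log2 scale (SE; adjusted p = 4.79e-07, edgeR), and it came mainly from Sicily. There it was 6.28 ± 0.35, against -0.02 ± 0.28 at Molise (adjusted p = 0.986, edgeR; of either sign, between -0.24 and 0.21, under the settings tried) and 1.04 ± 0.32 at Campania (adjusted p = 0.0444, edgeR; up to 0.358 with a library left out). An average over sites can thus be set by 1 site. For Cluster-27903.28562 as well, the average of 2.36 ± 0.34 (adjusted p = 0.000201, edgeR) came mainly from Sicily, with 5.39 ± 0.62. At Molise it had 1.07 ± 0.52 and at Campania 0.63 ± 0.59, neither called. The rule fixed part of the Sicily differences of both clusters, so nothing is read from their size.

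Of the clusters chosen for their opposite response, Cluster-27903.24125 was lower in Cabernet Sauvignon on average by -1.33 ± 0.18 (SE; adjusted p = 8.29e-05, edgeR). Cluster-27903.20658 had -0.68 ± 0.24 (adjusted p = 0.0458, edgeR), which passed the threshold in 6 of 17 repeats with a library left out (adjusted p 0.0245 to 0.303). Cluster-27903.28561 had 1.0 ± 0.52 (adjusted p = 0.168, edgeR), and without Aglianico Molise replicate 2 it had 1.47 (adjusted p = 0.0307, edgeR). Cluster-27903.32537 had 0.06 ± 0.33 (adjusted p = 0.934, edgeR), its differences at Sicily and elsewhere having opposite signs; the average lay between -0.21 and 0.65 under the settings tried.

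Within sites, where the rule fixed part of the outcome, the counts of calls are given as a description. At Sicily 94 of 106 members of the Cabernet-up class were called higher in Cabernet Sauvignon and 34 of 38 of the Aglianico-up class lower, with no call in the other direction. Of the 13971 clusters, 15.0% were called higher and 20.5% lower. With replicate 3 as the only Cabernet Sauvignon library at Sicily, fewer members and fewer of all clusters were called. The difference at Sicily then changed sign in 3 members. At Molise 38 members were called: 26 lower in the Cabernet-up class, and 10 higher and 2 lower in the Aglianico-up class, beside 7.24% higher and 10.9% lower among the 13971. At Campania 45 were called: 2 higher and 28 lower in the Cabernet-up class, and 14 higher and 1 lower in the Aglianico-up class, beside 8.83% and 8.54%. With the library labelled Aglianico Campania replicate 3 added, 0 members were called at Campania by edgeR (54 at an unadjusted p under 0.05), in a fit that called 0 of 27519 clusters there. An opposite order of the varieties, called at Sicily and at 1 or both of the other sites, was found in 32 members of the Cabernet-up class and 12 of the Aglianico-up class, and in 3.44% of the 13971 clusters. Without the unnumbered library and replicate 2 it was found in 22 and 7, and in 1.02%.

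For the contrasts that the rule did use, nothing is read from the counts. The Sicily difference in Cabernet Sauvignon minus that in Aglianico was called above 0 in 104 of 106 members of the Cabernet-up class and below 0 in 36 of 38 of the Aglianico-up class, beside 11.3% and 12% of the 13971. In Cabernet Sauvignon the Sicily difference was called higher in 96 members of the Cabernet-up class and lower in 26 of the Aglianico-up class (14.6% and 10.6% of the 13971). In Aglianico it was called lower in 60 and higher in 31 (9.41% and 15.2%). Both were called, in opposite directions, in 55 of 106 and 22 of 38 members (2.27% of the 13971), and neither in 5 and 3. With replicate 3 as the only Cabernet Sauvignon library at Sicily, fewer members were called for the Sicily difference in Cabernet Sauvignon. The same held for calls in opposite directions in both varieties and for the difference between the varieties' Sicily differences. The calls among the 13971 clusters fell as well. The Sicily difference in Cabernet Sauvignon changed sign in 6 members, and the difference between the varieties' Sicily differences in 0. Being chosen by the means of the groups did not therefore make a member pass the test in each variety. Cluster-27903.28561 is such a case: its Sicily difference was 3.9 ± 0.72 in Cabernet Sauvignon and -2.4 ± 0.85 in Aglianico (SE), where the adjusted p was 0.0669 (edgeR).

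The library labelled Aglianico Campania replicate 3 took no part in the choice, unlike the group means it is set against here. It lay nearer to the Cabernet Sauvignon Campania mean than to the mean of the other Aglianico Campania libraries in 126 of 144 members (87.5%), beside 78.2% of the 13971 clusters. Of the 107 members whose Campania means differed by at least 0.6 between the varieties it was nearer to Cabernet Sauvignon in 101 (94.4%), beside 94.8% of the 4084 such clusters among the 13971. Its median distance from the Cabernet Sauvignon Campania mean was 0.241 in the Cabernet-up class and 0.177 in the Aglianico-up class on the log2 scale. From the other Aglianico Campania libraries it was 0.961 and 0.943. Over all 13971 clusters the median distances were 0.149 from Cabernet Sauvignon Campania and 0.396 from the other Aglianico Campania libraries.

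What the members would show at Campania therefore depended on how this library was read. Aglianico at Sicily minus this library had a median of -0.32 in the Cabernet-up class, with 69 of 106 members below it (6980 of all 13971 clusters), against -1.10 when the other 2 Aglianico Campania libraries were used. In the other class the median was 0.68, with 25 of 38 above it (6991 of all 13971), against 1.43. Cabernet Sauvignon at Sicily minus this library was positive in all 106 members of the Cabernet-up class, with a median of 1.53, and negative in all 38 of the Aglianico-up class, with a median of -1.20. Over all 13971 clusters it was positive in 6964 and negative in 7007, and nothing is read from the comparison because the members were chosen on these Sicily means. When the rule was applied to all 18 libraries as labelled, the classes held 78 and 38 clusters, of which 72 and 30 were among the members described here.

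The composition of the classes also depended on the Cabernet Sauvignon Sicily libraries. With replicate 3 as the only Cabernet Sauvignon library at Sicily, the rule gave 62 and 33 clusters, and 58 and 17 of them were members. With each of the 17 libraries left out in turn, it gave 86 to 136 and 31 to 55 clusters.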

How the data were processed

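The authors deposited expected counts per transcript cluster for 18 libraries, not scaled to depth; CASAVA 1.8, RSEM and DESeq2 are listed, without roles, in the submitters' processing notes. Which aligner, assembler and build were used is not given in the sources used here. Of the values in a library, 5.6% to 7.78% were not whole. The 1 Cabernet Sauvignon Sicily column without a legible number was matched to its group only, and 0 columns were left aside. Members and named clusters were chosen by fixed rules, with earlier results of these data known. The rule used unrounded counts and median-of-ratios size factors (0.696 to 1.262). For tests, counts were rounded, filtered by filterByExpr and scaled by TMM (edgeR 4.0.16, R 4.3.3, 17 libraries, 6 group means, robust quasi-likelihood fit, Benjamini-Hochberg adjustment); standard errors are the fold change over the square root of F. In each class, the 2 members with the largest smallest gap and no overlap in both varieties were named, plus the 2 highest and 2 lowest called for the variety average; members with consecutive numbers, the most abundant members and those beside the limit were described too. On simulated counts for the variety average (28316 clusters) the test recovered 60% of 2-fold and 100% of 4-fold changes, with 2.439% false calls. The simulated spread was that typical of clusters of the same level. Members varied more than clusters in general, so these rates need not hold for them. No library was a copy of another (chi-square per degree of freedom at least 21.7). Alternatives were other scalings, filters, limits, DESeq2 1.42.0, limma-voom (limma 3.58.1), a replicate block and libraries left out.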

Additional observations from a re-analysis of the deposited data

Results flagged for a closer look

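The 4 clusters shown for their opposite response differed between the varieties in the effect of the same contrast, Sicily against the other sites. Since they were chosen for this difference, its test is no independent evidence. The Sicily difference in Cabernet Sauvignon minus that in Aglianico, on the log2 scale, was 6.3 in Cluster-27903.28561 (adjusted p = 0.00348, edgeR), 4.61 in Cluster-27903.20658 (adjusted p = 9.4e-05), -4.49 in Cluster-27903.32537 (adjusted p = 0.00127) and -3.22 in Cluster-27903.24125 (adjusted p = 0.000115). Without the unnumbered library and replicate 2 of Cabernet Sauvignon at Sicily, it no longer passed the threshold in Cluster-27903.28561 (5.11, adjusted p = 0.0595) and Cluster-27903.32537 (-3.95, adjusted p = 0.0509). No outlier test was run on single values, since each group held at most 3 libraries.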

How the results depend on the processing

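No value of a named cluster that passed the threshold changed sign under any setting run. Of those that did not pass, 4 changed sign in some setting: the variety average of Cluster-27903.32537, the Molise differences of Cluster-27903.26956 and Cluster-27903.28561, and the Campania difference of Cluster-27903.24125. Of the counts, 223 stayed within 1.5 times and 22 moved by more. The Cabernet-up class held 57 members at a limit of 0.8, 27 at 1, and 62 without 2 Cabernet Sauvignon Sicily libraries. The Aglianico-up class held 23 with a count minimum of 50, 17 at a limit of 0.8, 9 at 1, and 66 with upper-quartile factors, which moved the median Sicily difference of all clusters in Cabernet Sauvignon to -0.22. At a limit of 1, 28 and 7 members were crossing. Without the 2 Cabernet Sauvignon Sicily libraries, 1 library was left in that group. Fewer members and fewer of all clusters were then called between varieties at Sicily and for the Sicily difference in Cabernet Sauvignon. At Molise 22 were called with no filter and 25 with all 18 libraries. At Campania 25 were called with no filter, 69 by DESeq2 and 0 with all 18 libraries, and the cause was not tested. Leaving out Aglianico Campania replicate 1 or 2 left 1 library in that group. The filter then kept 55802 or 56086 clusters in place of 29738, and fewer members and fewer of all clusters were called at Campania. The lowest counts below for the variety average, Campania, the interaction and Sicily in Aglianico came from these fits. With each library left out, calls ranged over 36 to 62 (variety average), 113 to 131 (Sicily), 22 to 47 (Molise), 17 to 60 (Campania), 125 to 140 (interaction), 99 to 125 (Sicily in Cabernet Sauvignon) and 61 to 100 (Sicily in Aglianico); members ranged over 86 to 136 and 31 to 55.

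Replicate numbers were not taken to pair the samples: deviations had a median correlation of 0.082 over 35 same-numbered pairs, 16 of them over 0.1, against -0.043 over 71 pairs with different numbers, 22 of them over 0.1. In the Cabernet-up class the median deviation of replicate 2 was above 0 in all 6 groups (0.032 to 0.399) and that of replicate 3 below 0 in all 5 (-0.592 to -0.034). With a replicate block on the 16 numbered libraries 55 members were called for the variety average, against 52 without it, and 132 against 138 for the interaction. No count of members called moved by over 1.5 times with the block. The fit on the same libraries without a block was added after seeing the data, as were the crossing, no-overlap and joint counts without 2 Cabernet Sauvignon Sicily libraries. Where leaving out libraries left a group with 1 library, that library was assumed to vary like the other groups.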
